A study of Mus musculus with 7 samples.

Results

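The 8 genes described here, Cux1, Cux2, Rorb, Fezf2, Bcl11b, Foxp2, Tbr1 and Tle4, encode regulators of transcription that are known to mark layers of the cerebral cortex. They were taken by name, and each has a column of its own among 25871 non-viral gene columns. Excitatory neurons of the cortex are stacked in layers that differ in the targets of their axons. Neurons of the upper layers send axons mostly within the cortex, while deep layers hold neurons that project to the brainstem and spinal cord or to the thalamus. Each of these identities is set up during development by transcription factors that act in part by repressing one another, and several of them stay on in the adult.

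RNA of single nuclei (snRNA-Seq, by droplet capture on the inDrops platform) was measured in 1 sample of primary visual cortex (V1) from male C57BL/6J mice aged 6 to 10 weeks. These mice carried the SST PESCA AAV9 library, a pool of viruses whose reporter is driven by candidate regulatory elements, and no uninjected sample was compared. Open chromatin was measured by ATAC-Seq in 6 samples of whole cortex from uninjected mice aged 6 to 12 weeks, labelled male, with 2 samples for each of 3 interneuron classes that express somatostatin (SST), parvalbumin (PV) or vasoactive intestinal peptide (VIP). In those samples a Cre driver of the class (labelled JAX013044 for SST, JAX017320 for PV and JAX010908 for VIP) was crossed to a nuclear SUN1 reporter (JAX021039), so that each sample holds all cells that ever expressed that driver, from every cortical area. The study's methods name male and female mice for these crosses.

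The snRNA-Seq sample came as 10 libraries in 2 sets of 5. As 5 libraries were collected from each animal, a set is taken here as an animal, although the labels do not tie them. After barcodes with 200 or fewer non-viral UMIs (unique molecular identifiers, each standing for a captured transcript) were set aside, 32335 of 47348 barcodes remained, with 2457 to 3629 in a library and library medians of 612 to 876 UMIs. Libraries of 1 sample are not replicates of a condition, so no test was made on the RNA and every interval given for it is a 95% interval that covers counting error only. Neighbouring libraries of a set shared 339 to 821 barcode names, against 51 to 95 for libraries of different sets. Barcodes of the same name in neighbouring libraries were also more alike, with median cosine similarities of 0.172 to 0.188 against 0.144 to 0.155 for barcodes of different names. How many of them are a single nucleus divided between libraries was not tested. Leaving out the 9813 barcodes (30.3%) whose name occurred again in their set kept 132 of 136 levels of the 8 genes, those in the excitatory, inhibitory, layer, interneuron, glial and vascular gates, inside the interval of the full data. The 4 outside were Foxp2 in astrocytes, described below, and Rorb in PV, Bcl11b in vascular and Tle4 in VIP nuclei, whose 1, 4 and 1 UMIs all lay in those barcodes. Beyond these gates, Foxp2 in pooled glia left its interval too (0.78 to 0.64 UMIs per 10000). So did Fezf2 in nuclei with a UMI of Evc2. As the remaining barcodes are part of the full data, most levels were likely to stay inside, so the count of 132 shows little about shared names.

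Nuclei were gated on UMIs of marker genes that do not include any of the 8, so that the levels of the 8 played no part in the choice. The gates held 16489 excitatory, 1696 inhibitory, 1283 astrocyte, 1457 oligodendrocyte, 222 oligodendrocyte precursor, 300 microglia and 490 vascular nuclei. Among the excitatory nuclei, layer markers gated 916 of layers 2 and 3 (L2/3), 212 intratelencephalic (L5IT), 237 pyramidal tract (L5PT) and 78 near-projecting nuclei of layer 5 (L5NP), 442 corticothalamic nuclei of layer 6 (L6CT) and 134 of layer 6b. Layer 4 reached 46 nuclei and intratelencephalic layer 6 reached 9, too few for a level, so nuclei with at least 1 UMI of Rspo1, a layer 4 gene, stand for layer 4 here (287 nuclei). Each list is high in its own gate by construction: the L6CT list came to 19.3 UMIs per 10000 UMIs in its gate and to 0.52 or less in the other layer gates, and the L5PT list to 13.2 against 0.40 or less. The gates were also thin, since 57.9% of L2/3 and 52.9% of L6CT nuclei held just the required 2 marker UMIs, and 14415 excitatory nuclei fell in no layer gate. Levels are given below as UMIs of the gene per 10000 non-viral UMIs of the gate.

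The 8 genes were captured sparsely, with 1797 UMIs (Fezf2) to 5058 UMIs (Tbr1) over all kept nuclei. Between 65.0% (Bcl11b) and 77.6% (Tbr1) of these UMIs lay in excitatory-gated nuclei. In the plot of levels by gate the high columns differ between the genes. Cux1 and Cux2 are highest in a neighbouring pair, while Bcl11b and Tbr1 are high in several gates. Barcodes with 200 or fewer UMIs, which were not taken as nuclei, carried all 8 genes too. Their levels ran from 0.46 UMIs per 10000 for Fezf2 to 1.90 for Tbr1. Some gates lay far lower, such as PV with a Tbr1 level of 0.13, so these barcodes do not measure the background in gated nuclei. What part of a level is background was not tested.

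**Figure D1:**
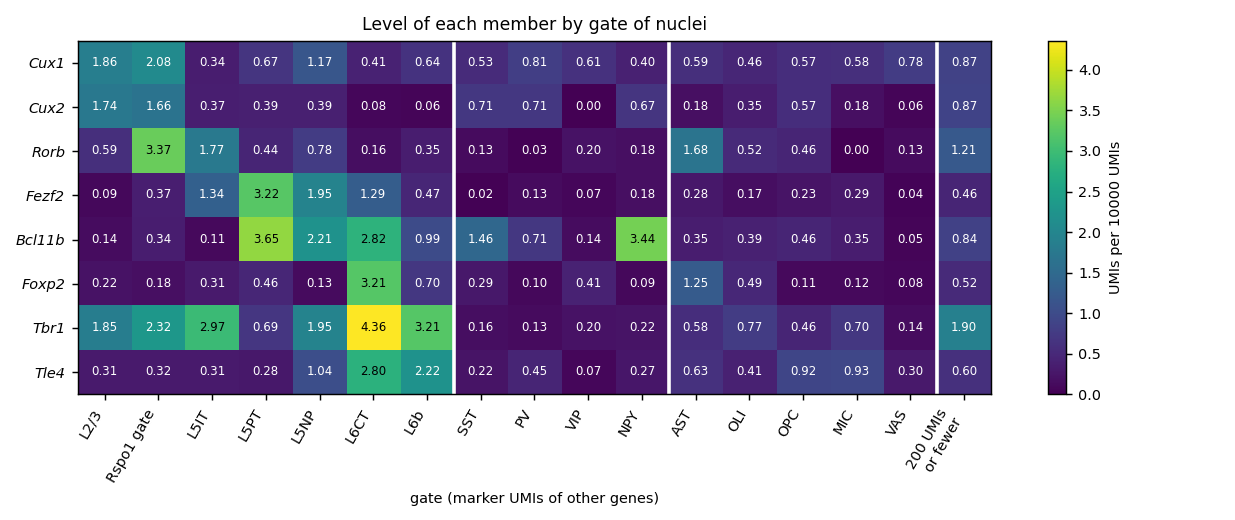
Level of each of the 8 genes (rows) in each gate of nuclei (columns), as UMIs per 10000 UMIs by colour and printed value, with layer gates on the left, interneuron gates next, then glia and vascular cells, and barcodes of 200 or fewer UMIs at the far right. Cux1 and Cux2 are highest in the L2/3 and Rspo1 gates, Fezf2 and Bcl11b in L5PT, and Foxp2, Tbr1 and Tle4 in L6CT.

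Cux1 and Cux2, homeodomain proteins of upper-layer neurons that act on dendrites and synapses, were highest in the upper gates. In L2/3-gated nuclei Cux1 ranged over the 10 libraries from 0.77 through a median of 1.97 to 2.45 UMIs per 10000, and stood at 1.86 (1.64 to 2.11, 247 UMIs) with all libraries pooled. In L6CT-gated nuclei it ranged from 0 to 0.87 with a median of 0.36. The libraries overlapped between these gates in the lowest L2/3 value alone. Cux2 ranged from 1.12 through 1.81 to 2.10 in L2/3 (pooled 1.74, 1.52 to 1.98) and from 0 through 0.051 to 0.22 in L6CT (pooled 0.080, 0.026 to 0.19, from 5 UMIs). Every library was higher in L2/3 for Cux2, with no overlap. A Cux2 UMI was seen in 19.3% of L2/3 nuclei and in 1.13% of L6CT nuclei, at median depths of 1363 and 1268.5 UMIs. With each nucleus of at least 300 UMIs thinned to 300, and the others left out, these shares were 4.83% and 0.35%.

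Rspo1-gated nuclei did not differ from L2/3 nuclei beyond counting error in either Cux gene, with a ratio of 1.12 (0.86 to 1.45) for Cux1 and 0.95 (0.71 to 1.26) for Cux2, although 8 nuclei stood in both gates. Outside the layer gates Cux1 reached 0.81 in PV and 0.78 in vascular nuclei, under the 0.87 of the barcodes with 200 or fewer UMIs. After the upper gates L5NP came next at 1.17 (0.54 to 2.22), from 9 UMIs in 4 of the 10 libraries. Levels of Cux2 in interneuron gates likewise lay under that of these barcodes, 0.87. Gated nuclei can lie far lower, as vascular nuclei held 0.065 and L6CT nuclei 0.080. What part of the interneuron levels is background was not tested. Cux2 stood at 0.71 (0.49 to 1.00, 32 UMIs) in SST-gated and at 0.71 (0.45 to 1.08, 22 UMIs) in PV-gated nuclei. None of the 174 VIP-gated nuclei held a UMI, and the floor of 3 UMIs is a level of 0.20. Set against this floor the ratio was 3.47 for SST and 3.49 for PV. With the counting error of both gates the lower 95% limits of the ratio to VIP were 2.66 for SST and 2.60 for PV, or 2.12 and 2.18 without the shared barcode names.

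Rorb, a nuclear receptor of layer 4 neurons, took its highest level in Rspo1-gated nuclei. It ranged there from 1.82 through a median of 3.31 to 4.55 UMIs per 10000 over the libraries, with 3.37 pooled (2.81 to 4.01, 128 UMIs). In L2/3 the libraries reached from 0.15 to 0.88, so the gates did not overlap, and the ratio between them was 5.66 (4.24 to 7.59). Among the layer gates, L5IT-gated nuclei came next at 1.77 (1.36 to 2.27), with libraries from 0 through 1.28 to 2.73. Rorb was 3.98-fold higher there than in L5PT (2.45 to 6.67) and lowest among the layer gates in L6CT, at 0.16 (0.076 to 0.29, 10 UMIs). A Rorb UMI was seen in 25.1% of Rspo1-gated and in 1.81% of L6CT-gated nuclei, or in 9.47% and 0.40% after thinning to 300 UMIs.

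Rorb was also present in astrocytes. The astrocyte gate ranged from 0.85 through 1.56 to 3.73 UMIs per 10000, with 1.68 pooled (1.41 to 1.99, 134 UMIs), which was 3.23-fold above oligodendrocytes (2.23 to 4.79) and 8.22-fold above inhibitory neurons (5.67 to 12.2). The thinned shares kept this order, with 5.34% of astrocyte, 1.52% of oligodendrocyte and 0.45% of SST nuclei. Thinning left out the 433 astrocyte, 690 oligodendrocyte and 16 SST nuclei under 300 UMIs, of 1283, 1457 and 382. The astrocyte level lay above the 1.21 of the barcodes with 200 or fewer UMIs. Those barcodes do not measure background in gated nuclei, and the background part of this level was not tested. Leaving out shared barcode names raised the ratio to oligodendrocytes to 4.52 (2.84 to 7.50). No Rorb UMI was seen in 300 microglia nuclei, where 3 UMIs would be a level of 0.18.

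**Figure D2:**
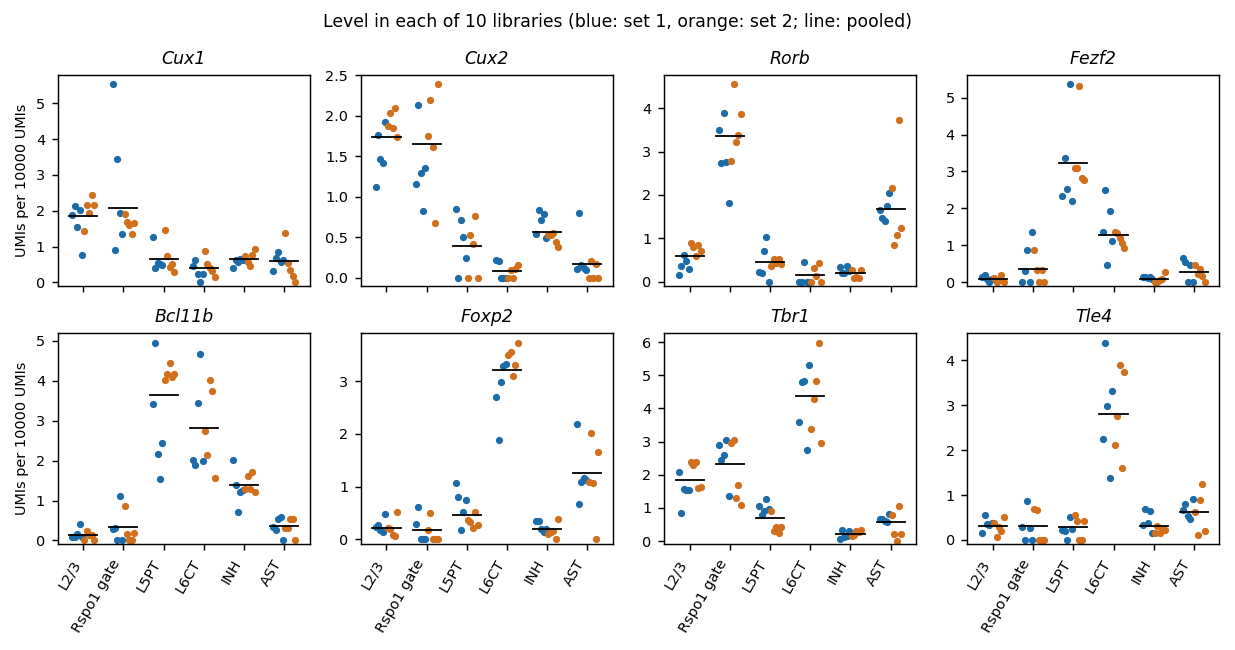
Level of each of the 8 genes in 6 gates (horizontal axis), as UMIs per 10000 UMIs, with a point for each of the 10 libraries (blue for set 1, orange for set 2) and a line at the pooled level. In the Rorb panel every Rspo1-gated library lies at 1.82 or above and every L2/3 library at 0.88 or below.

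Fezf2, the zinc-finger factor that directs neurons to the corticospinal fate, and Bcl11b, a zinc-finger factor (also called Ctip2) that acts after it in the same neurons, shared the L5PT gate as their highest. Fezf2 ranged there from 2.21 through a median of 2.95 to 5.36 UMIs per 10000, with 3.22 pooled (2.76 to 3.74, 174 UMIs). L2/3-gated nuclei ranged from 0 to 0.21 with a pooled level of 0.090, so that every library separated the gates. L5NP came next at 1.95 (1.09 to 3.22), an interval that overlaps that of L5PT, followed by L5IT (1.34, 0.99 to 1.78) and L6CT (1.29, 1.02 to 1.60), whose intervals overlap that of L5NP and each other. A Fezf2 UMI was seen in 40.5% of L5PT-gated nuclei and in 0.26% of SST-gated nuclei, at median depths of 2178 and 1055.5 UMIs, and thinning to 300 UMIs left 8.27% and 0.047%.

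Bcl11b in L5PT ranged from 1.53 through 4.05 to 4.95 UMIs per 10000, with 3.65 pooled (3.16 to 4.20, 197 UMIs), and its 2 library sets stood at 2.96 and 4.17. L6CT followed at 2.82 (2.42 to 3.26), with libraries from 1.55 through 2.44 to 4.66 that overlap those of L5PT. The ratio of L5PT to L6CT was 1.30 (1.05 to 1.60) for Bcl11b and 2.50 (1.91 to 3.30) for Fezf2. With gates that needed just 1 marker UMI and none of any other list, Bcl11b was higher in L6CT (2.40) than in L5PT (2.09), so the order of these gates depends on the gating. L5IT-gated nuclei carried 4 Bcl11b UMIs, 0.11 per 10000 (0.031 to 0.29), while their Fezf2 level was 0.42 times that of L5PT (0.29 to 0.58).

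Bcl11b alone of the 8 was lower in excitatory than in inhibitory nuclei, in 9 of 10 libraries, at 0.98 and 1.39 UMIs per 10000. Inhibitory classes differed widely. NPY-gated nuclei, which had Npy UMIs and none of Sst, Pvalb or Vip, ranged from 1.22 through 3.55 to 4.88 (pooled 3.44, 2.72 to 4.30, 77 UMIs). SST-gated nuclei ranged from 0 through 1.46 to 2.91 (pooled 1.46, 1.13 to 1.86, 66 UMIs), PV-gated nuclei from 0 through 0.57 to 1.43 (pooled 0.71, 0.45 to 1.08, 22 UMIs), and VIP-gated nuclei held 2 UMIs, 0.14 per 10000 (0.017 to 0.49). Each step in this order exceeded counting error: NPY over SST by 2.35-fold (1.67 to 3.32), SST over PV by 2.05-fold (1.25 to 3.49) and PV over VIP by 5.23-fold (1.29 to 45.9), the last against just those 2 UMIs. The PV and VIP levels lay under the 0.84 of barcodes with 200 or fewer UMIs. The same order held without the shared barcode names, with ratios of 1.93 (1.29 to 2.88), 1.88 (1.11 to 3.33) and 9.90 (1.58 to 410.5), the last against 1 VIP UMI. A Bcl11b UMI was seen in 10.0% of NPY, 3.73% of SST, 2.10% of PV and 0.55% of VIP nuclei after thinning to 300 UMIs.

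Foxp2, a forkhead factor of corticothalamic neurons best known for its role in vocal learning and speech, had a single high layer gate. In L6CT it ranged from 1.88 through a median of 3.30 to 3.73 UMIs per 10000, with 3.21 pooled (2.79 to 3.69, 202 UMIs). Layer 6b followed at 0.70 (0.36 to 1.22, 12 UMIs) with libraries from 0 to 1.67, so that the lowest L6CT library lay above the highest of layer 6b. The ratio of L6CT to layer 6b was 4.59 (2.57 to 9.03). Thinned to 300 UMIs, 8.94% of L6CT nuclei and 0.18% of NPY nuclei held a Foxp2 UMI.

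Foxp2 UMIs were also counted in astrocyte-gated nuclei, at 1.25 per 10000 (1.02 to 1.52, 100 UMIs), with libraries from 0 through 1.11 to 2.19. That is 2.55-fold above oligodendrocytes (1.72 to 3.86). It is also above the 0.52 of barcodes with 200 or fewer UMIs, which do not measure background in gated nuclei. The background part of the astrocyte level was not tested. A single nucleus gave 14 of the 100 UMIs, and without it the level was 1.10. Without the shared barcode names 59 UMIs remained, the level was 0.97 and the ratio to oligodendrocytes was 2.02 (1.25 to 3.33). The thinned shares, 1.71% of astrocyte and 1.60% of oligodendrocyte nuclei, lay close together. No order of these glia is therefore read from the Foxp2 shares.

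Tbr1, a T-box factor that represses Fezf2 in corticothalamic neurons, differed least between upper and deep gates among the deep-layer genes. It was highest in L6CT, from 2.74 through 4.54 to 5.97 UMIs per 10000 over the libraries and at 4.36 pooled (3.86 to 4.91, 274 UMIs). Layer 6b (3.21, 2.42 to 4.18) and L5IT (2.97, 2.43 to 3.60) came next with intervals that overlap each other. L2/3 stood at 1.85 (1.62 to 2.09), near the 1.90 of barcodes with 200 or fewer UMIs. The interneuron gates lay far lower, the highest being NPY at 0.22. What part of the L2/3 level is background was not tested. L5PT was the lowest layer gate at 0.69 (0.48 to 0.94), and L5IT exceeded it 4.33-fold (2.95 to 6.49). In the L5IT and L5PT gates Tbr1 and Fezf2 stood in opposite order. L6CT held both Tbr1 (4.36) and Fezf2 (1.29). Over 15 gates Pearson's r of their log2 levels was 0.66. Those gates include interneurons, glia and vascular nuclei, where Fezf2 reached at most 0.29 and Tbr1 at most 0.77, so r does not describe the layers alone. Within excitatory nuclei, those with a Tbr1 UMI had 0.86 times the Fezf2 level of those without (0.75 to 0.99). Those with a Fezf2 UMI had 0.85 times the Tbr1 level (0.75 to 0.95). Inhibitory nuclei held 0.23 per 10000, well under the level of those barcodes.

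Tle4, a corepressor of the Groucho family that has no DNA-binding domain of its own, was high in both layer 6 gates. L6CT ranged from 1.37 through 2.87 to 4.39 UMIs per 10000, with 2.80 pooled (2.40 to 3.25, 176 UMIs), and layer 6b from 0.59 through 1.74 to 6.11, with 2.22 pooled (1.57 to 3.04, 38 UMIs). These gates did not differ beyond counting error, with a ratio of 1.26 (0.89 to 1.84), and in library set 1 alone layer 6b was the higher, at 3.37 against 2.94. L5PT held 0.28 (0.16 to 0.46), so that the ratio of L5PT to L6CT was 0.099 (0.054 to 0.17). In microglia 16 UMIs gave 0.93 per 10000, of which 43.8% came from a single nucleus.

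Nuclei were also gated on 1 UMI of a single gene. Coch, Evc2 and Fst belong to none of the layer lists. In nuclei with a UMI of Coch, 1334 in number, Rorb stood at 2.07 and Cux1 at 1.50 UMIs per 10000. In 483 Evc2-gated and 223 Fst-gated nuclei Cux1 stood at 1.73 and 1.72, Cux2 at 1.67 and 1.24, and Fezf2 at 0.26 and 0.13. Without the shared barcode names Fezf2 in the Evc2 gate stood at 0.14, from 8 UMIs in place of 18. Syt6 and Rprm, which do belong to the L6CT list, gave 2.81 and 2.46 for Foxp2 in 386 and 1340 nuclei. Deptor, of the L5IT list, gave 0.45 for Foxp2 and 1.47 for Rorb in 997 nuclei.

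Upper gates (L2/3 and layer 4) were then pooled and compared with deep gates, taking a 2-fold difference as a call. Of all 3971 genes with at least 200 UMIs in these nuclei, 1.99% were called higher in the upper gates and 2.17% lower. Of the 8, 2 were higher: Cux2 by 6.97-fold (5.03 to 9.84) and Cux1 by 3.51-fold (2.76 to 4.49), each in 10 of 10 libraries. Another 4 were lower in 10 of 10 libraries: Fezf2 and Bcl11b, each 16.9-fold higher in the deep gates (10.1 to 30.5 and 10.7 to 28.4), Foxp2 (6.52-fold, 4.46 to 9.87) and Tle4 (4.39-fold, 3.18 to 6.20). These ratios moved with the gating. With gates that needed 1 marker UMI and none of any other list, the upper-to-deep ratio was 3.33 for Cux2 and 2.06 for Cux1, and for Fezf2 and Bcl11b it was 0.15 and 0.094 in place of 0.059. With gates at 3 UMIs that of Cux2 was 11.0. Tbr1 was 1.50-fold higher in the deep gates (1.29 to 1.76), in 10 of 10 libraries. Rorb did not separate the pools, with a ratio of 1.27 (0.96 to 1.68), 5 libraries on each side, and values of 0.84 and 1.59 in the library sets. The layer 4 gate gives just 46 nuclei to the upper pool, and L5IT belongs to the deep one.

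**Figure D3:**
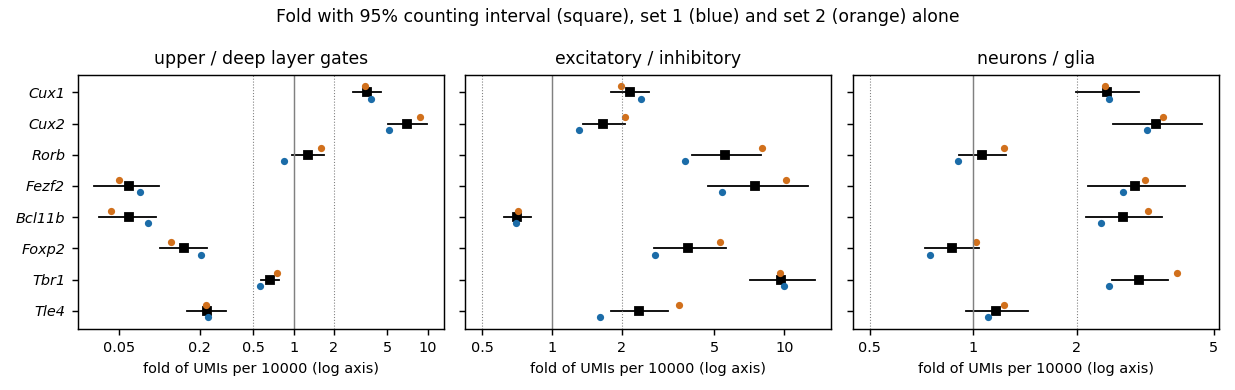
Ratio of the level of each of the 8 genes (vertical axis) between pools of gates, on a logarithmic horizontal axis, with the 95% counting interval (line) around the pooled ratio (square) and the ratio in library set 1 (blue) and set 2 (orange) alone. Solid vertical lines mark equal levels and dotted lines a 2-fold difference. Only Rorb lies on both sides of equal levels in the left panel, at 0.84 and 1.59.

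Other regulators of layer and projection identity, 26 in a list drawn up beside the 8, were compared on the same axis. Of the 18 with at least 200 UMIs, 0 were called higher in the upper gates and 4 lower (Sox5, Lmo3, Etv1 and Nfib). The other 8 had too few UMIs for a call. Named here after their values were seen, Lhx2 (2.57, 1.90 to 3.50) and Bhlhe22 (2.42, 1.73 to 3.44) among them had upper-to-deep ratios above 2, and Zfpm2, Otx1, Bcl6 and Nfia were higher in the deep gates by 16.8, 6.24, 5.14 and 4.36 times, so the count of 0 rests on the 200 UMIs required. The median log2 ratio was −0.02 for the 18 and for all genes and −1.36 for the 8, but both lists hold genes of each direction, so the medians do not measure how far their genes differ. The 6 with the most UMIs in excitatory nuclei had upper-to-deep ratios of 1.38 (Mef2c), 1.21 (Lmo4), 1.50 (Zbtb18), 0.99 (Foxp1), 0.37 (Nfib) and 0.65 (Bcl11a).

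Excitatory against inhibitory nuclei gave 6 of the 8 genes 2-fold higher in excitatory nuclei, where 8.26% of 9963 genes were. Tbr1 led at 9.68-fold (7.12 to 13.5), followed by Fezf2 at 7.47-fold (4.71 to 12.6), Rorb at 5.55-fold (4.01 to 7.90), Foxp2 at 3.85-fold (2.74 to 5.59), Tle4 at 2.36-fold (1.80 to 3.15) and Cux1 at 2.16-fold (1.79 to 2.62). The Tle4 call was lost in library set 1 (1.61, against 3.52 in set 2) and that of Cux1 in set 2 (1.99). Cux2 stayed under the call at 1.66-fold (1.36 to 2.05), with 1.31 in set 1 and 2.05 in set 2. No member was called lower, where 4.92% of genes were, although Bcl11b had a ratio of 0.71 (0.62 to 0.81). Of 24 other regulators 12 were higher and 0 lower.

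Neurons against glia gave 5 of the 8 higher in neurons (Cux2, Tbr1, Fezf2, Bcl11b and Cux1, by 2.45-fold to 3.40-fold) and 0 lower, where 25.9% and 12.6% of 10448 genes were. Rorb (1.06, 0.91 to 1.24), Foxp2 (0.86, 0.73 to 1.04) and Tle4 (1.17, 0.95 to 1.44) did not separate the pools beyond counting error. The Foxp2 ratio moved from 0.63 with nuclei of more than 500 UMIs to 1.55 with the looser gates.

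The L6CT and L5PT gates, taken because several of the 8 are highest there, were each set against all other layer gates. That choice favours higher members, so the counts are a description. L6CT had 4 of the 8 genes higher by 2-fold, where 1.89% of genes were: Foxp2 (10.3-fold, 7.91 to 13.5), Tle4 (6.12-fold, 4.81 to 7.80), Bcl11b (2.81-fold, 2.31 to 3.42) and Tbr1 (2.37-fold, 2.03 to 2.75). Cux1, Rorb and Cux2 were lower there, where 5.09% of genes were, with ratios of 0.32, 0.20 and 0.073. L5PT had 2 higher, where 1.66% of genes were: Fezf2 (5.09-fold, 4.09 to 6.34) and Bcl11b (4.09-fold, 3.37 to 4.96). It had 4 lower (Cux2, Foxp2, Tle4 and Tbr1), where 4.0% of genes were. Of these, Foxp2 (0.47) was at 0.81 in library set 1 and at 0.30 in set 2, so its call was lost in set 1, and Tbr1 (0.26) was at 0.41 and 0.16. Each of the 6 higher ratios was above 1 in 10 of 10 libraries.

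Within single excitatory nuclei the 8 genes fell into groups that were seen together. For each of 28 pairs, the level of the second gene was compared between nuclei with and without a UMI of the first, and the counting interval of the ratio lay above 1 in 12 pairs, below 1 in 15 and across 1 in 1. Nuclei with a UMI of Bcl11b had 3.40 times the Fezf2 level of nuclei without (3.01 to 3.83), 2.32 times the Foxp2 level (2.03 to 2.65) and 0.22 times the Rorb level (0.16 to 0.29). Those with Foxp2 had 3.04 times the Tle4 level (2.65 to 3.49). Those with Cux2 had 0.26 times the Fezf2 level (0.18 to 0.36) and 1.36 times the Cux1 level (1.21 to 1.53). Tbr1 was nearly even with Rorb, at 1.01 (0.91 to 1.12). Nuclei with a UMI are deeper, with medians of 1426 and 947 UMIs with and without Bcl11b, and the part of depth in these ratios was not tested. Without the shared barcode names 11 pairs lay above 1 and 15 below.

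**Figure D4:**
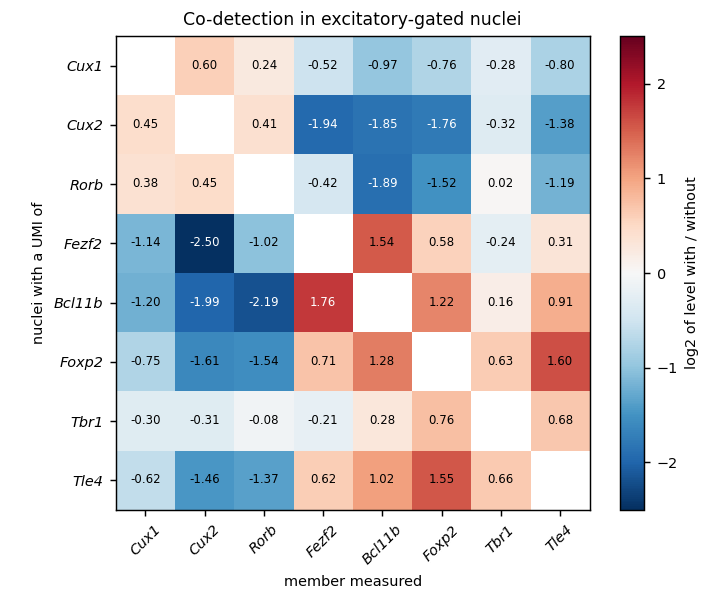
Log2 ratio of the level of a measured gene (horizontal axis) in excitatory-gated nuclei with a UMI of another of the 8 genes (vertical axis) to its level in those without, by colour and printed value. Cux1, Cux2 and Rorb are higher together, and Fezf2, Bcl11b, Foxp2 and Tle4 form a second block with ratios above 1.

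Genes whose levels ran most like each of the 8 over 15 gates, by Pearson's r of log2 levels among 8768 genes, were Glra3 for Cux1 (0.66), Unc5d for Cux2 (0.83), Lhx2 for Rorb (0.87), Crym for Fezf2 (0.86), Helq for Bcl11b (0.78), Igfbp4 for Foxp2 (0.75), Nptx1 for Tbr1 (0.98) and Gadd45a for Tle4 (0.76). The gates share libraries and differ in depth, and these coefficients describe 15 points. Next in order were Abi3bp and Capn7 for Cux1, Prkg2 and Zufsp for Cux2, Pamr1 and Nim1k for Rorb, Ldb2 and Gm3364 for Fezf2, Mier2 and Sema3e for Bcl11b, Hk1 and Ephb2 for Foxp2, Stx1a and Ext1 for Tbr1, and Peak1 and Gdpd5 for Tle4.

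Chromatin at the same genes was read from the ATAC-Seq counts of sorted interneurons. ATAC-Seq cuts DNA where nucleosomes leave it open, and the reads falling in a region measure how accessible it is. Of 323369 reference regions, 238 overlapped one of the 8 genes or the 10 kb before its start, and 33 of them (13.9%) had enough reads to be tested, against 12.5% of all regions. Bcl11b, on chr12:107910403-108003602 (GRCm38/mm10), held 13 of the 33, Cux1 (chr5:136248135-136567490) 6, Cux2 (chr5:121856366-122050102) 5, Rorb (chr19:18930605-19111196) and Foxp2 (chr6:14901349-15441977) 3 each, Tbr1 (chr2:61802930-61814114) 2 and Tle4 (chr19:14448150-14598051) 1. None of the 4 regions of Fezf2 (chr14:12342094-12348189) passed. The filter could admit a region on its reads in 1 class alone, the class in which it is then highest. Samples held 1801883 to 2256073 reads in regions. Each sample came from a single mouse, so the p-values rest on 2 mice a class, and more nuclei of a subtype cannot be told apart from more accessible chromatin in each nucleus.

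Regions at the starts of the genes differed widely in reads. The region over the Tle4 start (chr19:14597897-14598708) held 3025 reads over the 6 samples, rank 27 of all regions, with 208.8 to 297.6 CPM (reads scaled to the sample's reads in all regions). Start regions of Rorb (380 reads), Cux2 (216), Cux1 (210), Foxp2 (111), Bcl11b (98) and Tbr1 (81) also exceeded the median region of 11 reads. That of Tbr1 (chr2:61802529-61803432) held 16 and 22 reads in PV, 16 and 8 in SST and 9 and 10 in VIP, and its PV to VIP difference, 1.20 ± 0.49 (log2, SE), missed the threshold (edgeR adjusted p = 0.052). For Fezf2 the region with most reads near a start (12 reads) lies over a later transcript start and was not tested.

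More regions of the 8 genes were called against VIP than between SST and PV, as was so over all regions tested. In SST against VIP, 11 of the 33 regions were more accessible in SST, where 17.8% of 40338 regions were, and 3 in VIP, where 18.4% were (edgeR's quasi-likelihood test, Benjamini-Hochberg adjusted p under 0.05). In PV against VIP, 11 were more accessible in PV and 3 in VIP, where 24.6% of regions were in each direction. In SST against PV 1 was called in each direction, where 3.96% and 4.33% of regions were, close to the background. The next 3 regions in SST against PV, in Bcl11b (chr12:107964395-107965217), Cux1 (chr5:136565947-136566865) and Cux2 (chr5:121948093-121949110), did not pass, with log2 differences of −1.23, −1.19 and −1.02 (edgeR adjusted p = 0.071, 0.15 and 0.16). Bcl11b alone gave 8 of the 11 in SST and 7 of the 11 in PV. These counts fell to 0 and 1 both with no filter on reads and with DESeq2, which was run without that filter too. Leaving out 1 sample gave 2 to 8 in SST, with 4 without VIP replicate 1 and 2 without VIP replicate 2. In PV it gave 3 to 8, with 3 without VIP replicate 1 and 4 without VIP replicate 2 or without either PV sample. Its RNA in the gates above was 1.46 in SST, 0.71 in PV and 0.14 in VIP, from other mice and from V1 alone.

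Sequences of 4 windows are printed because they lie in called regions that went opposite ways within a gene, a neighbouring pair in Bcl11b and a pair in Cux2. Each is 200 bases of the plus strand of GRCm38/mm10 around the summit of the strongest peak in the region, with E-boxes (CANNTG, the site of basic helix-loop-helix factors) in capitals. They lie at chr12:107930786-107930985, chr12:107928594-107928793, chr5:121892325-121892524 and chr5:122000448-122000647 in this order.
Bcl11b intron, open in PV: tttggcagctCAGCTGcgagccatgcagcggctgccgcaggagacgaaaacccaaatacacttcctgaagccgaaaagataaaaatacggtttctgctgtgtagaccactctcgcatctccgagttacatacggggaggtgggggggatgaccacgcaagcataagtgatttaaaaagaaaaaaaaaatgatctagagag
Bcl11b intron, open in VIP: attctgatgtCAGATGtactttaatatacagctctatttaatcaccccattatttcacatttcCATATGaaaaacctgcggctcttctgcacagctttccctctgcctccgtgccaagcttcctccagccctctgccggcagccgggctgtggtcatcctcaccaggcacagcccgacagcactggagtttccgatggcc
Cux2 intron, open in SST: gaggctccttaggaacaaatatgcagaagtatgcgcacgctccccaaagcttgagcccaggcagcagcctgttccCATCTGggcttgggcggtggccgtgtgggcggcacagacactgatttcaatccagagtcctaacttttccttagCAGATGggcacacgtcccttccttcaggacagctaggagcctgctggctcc
Cux2 intron, open in VIP: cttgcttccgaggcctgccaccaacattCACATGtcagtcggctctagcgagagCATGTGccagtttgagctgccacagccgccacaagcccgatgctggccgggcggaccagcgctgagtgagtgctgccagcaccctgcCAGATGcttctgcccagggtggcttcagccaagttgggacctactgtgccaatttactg
The windows hold 1, 2, 2 and 3 E-boxes, a motif found in 68.4% of 269378 peak windows of the same length. None holds TGANTCA (in 7.96% of windows), TAATTA (2.56%) or AGGTCA (9.57%) on either strand.

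The neighbouring pair in Bcl11b lies in introns, with 1285 bases between the regions. The region chr12:107930354-107931521 held 56 and 39 reads in the PV samples, 21 and 18 in SST and 4 and 5 in VIP, with no overlap between classes. It was 3.56 ± 0.45 (log2, SE, n = 2 per class) more accessible in PV than in VIP (edgeR adjusted p = 2.1e-05) and 2.15 ± 0.51 more in SST than in VIP (edgeR adjusted p = 0.0030). SST fell below PV by 1.41 ± 0.36 (edgeR adjusted p = 0.022). The region chr12:107928393-107929068 ran the other way, with 32 and 47 reads in VIP, 8 and 4 in PV and 8 and 10 in SST. PV fell below VIP by 2.49 ± 0.45 (edgeR adjusted p = 0.00035) and SST below VIP by 2.05 ± 0.42 (edgeR adjusted p = 0.0010).

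With no filter and with DESeq2 the SST to VIP call of the first region was lost (adjusted p = 0.071 in edgeR and 0.085 in DESeq2), and its SST to PV call was lost too.

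Further Bcl11b regions had fewest reads in VIP, as the first of the pair did. The region just before its start (chr12:108003681-108004670) held 17 and 25 reads in SST, 22 and 21 in PV and 6 and 7 in VIP, and was 1.91 ± 0.46 (log2, SE) higher in PV than in VIP (edgeR adjusted p = 0.0028) and 1.72 ± 0.47 higher in SST (edgeR adjusted p = 0.0075). An intronic region (chr12:107993904-107994505) held 14 and 6 reads in PV, 11 and 8 in SST and 1 and 0 in VIP, which puts PV over VIP by 4.19 ± 0.96 (edgeR adjusted p = 0.0020). None of these 3 calls passed with no filter (edgeR adjusted p = 0.074, 0.12 and 0.058) or with DESeq2 (adjusted p = 0.15, 0.23 and 0.094). The call of the start region in SST was also lost without VIP replicate 1 (edgeR adjusted p = 0.066) or VIP replicate 2 (0.082), and that of the intronic region without PV replicate 1 (0.079).

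Both Cux2 regions are intronic, 107284 bases apart. The region chr5:121892011-121892856 held 25 and 35 reads in SST, 7 and 8 in PV and 4 and 1 in VIP. It was higher in SST than in VIP by 3.56 ± 0.58 (log2, SE, edgeR adjusted p = 0.00016). Over PV it was higher in SST by 1.83 ± 0.47 (edgeR adjusted p = 0.024). With no filter the call against VIP stayed (edgeR adjusted p = 0.0088) and that against PV was lost (0.29). DESeq2 gave no adjusted p against PV. The region chr5:122000141-122000985 held 22 and 35 reads in VIP, 7 and 0 in SST and 4 and 5 in PV. SST fell below VIP there by 2.90 ± 0.66 (edgeR adjusted p = 0.0024) and PV by 2.42 ± 0.64 (edgeR adjusted p = 0.0048), or 0.0505 with no filter. Cux2, with no UMI in VIP-gated nuclei, had a region open in VIP samples and another open in SST samples. Each region had most of its reads in 1 class, which could pass the filter alone.

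Cux1 and Rorb each had a named intronic region with few VIP reads. That of Cux1 (chr5:136303106-136304072, which also overlaps the gene Gm16599 on the other strand) held 19 and 28 reads in SST, 18 and 8 in PV and 1 and 3 in VIP, higher in SST than in VIP by 3.53 ± 0.63 (log2, SE, edgeR adjusted p = 0.00037). That of Rorb (chr19:18940309-18941077) held 19 and 9 reads in PV, 5 and 12 in SST and 0 and 2 in VIP, higher in PV than in VIP by 3.84 ± 0.83 (edgeR adjusted p = 0.0013), a call lost with no filter (0.053) and with DESeq2 (0.064). With no filter on reads or with DESeq2, 0 of the regions of the 8 genes were called between SST and PV, and leaving out either PV sample had the same effect. With no filter or DESeq2 the counts against VIP, both directions together, dropped from 14 to between 3 and 5. Both regions of the Bcl11b pair kept their PV to VIP calls in every setting tried.

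**Figure D5:**
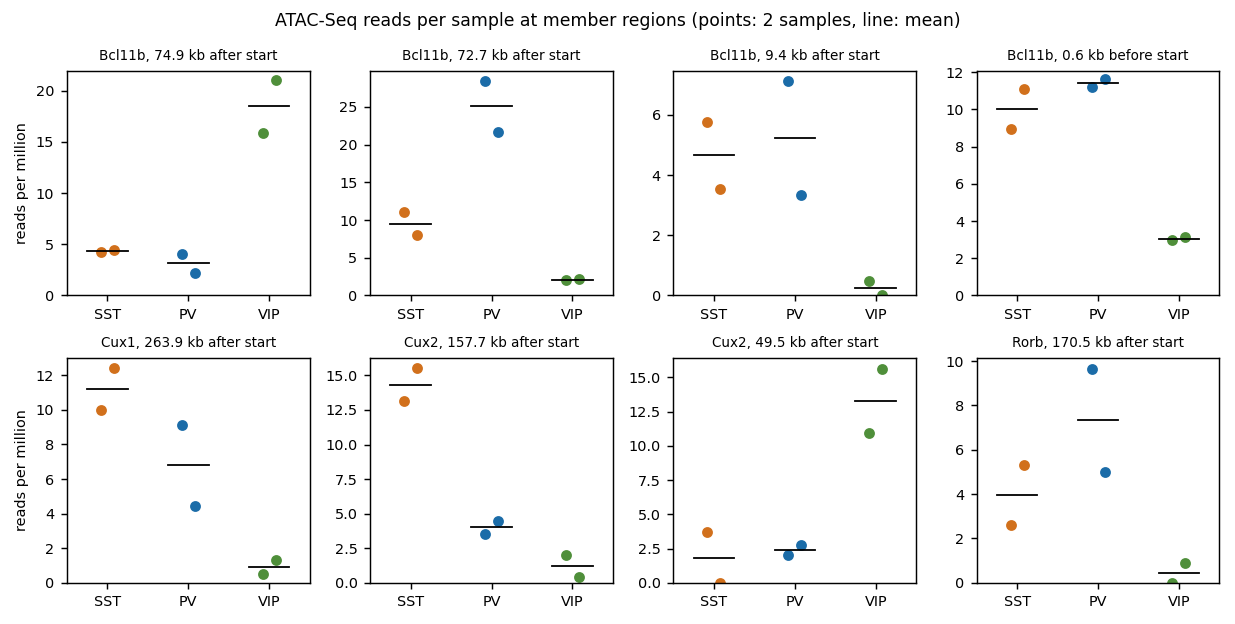
Reads of each ATAC-Seq sample scaled to its depth (CPM, vertical axis) at 8 regions of Bcl11b, Cux1, Cux2 and Rorb, titled by the distance of the region's middle from the gene's start, with a point for each of 2 samples a class and a line at their mean. In the first 2 panels, the neighbouring pair in Bcl11b, VIP is highest in one and lowest in the other.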

How the data were processed

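The deposited snRNA-Seq counts are whole UMIs of a gene in a barcode, not normalized, from the authors' inDrops mapping to GRCm38 plus viral contigs. For ATAC-Seq, submitters' notes name Trimmomatic 0.33, Subread 1.4.6-p3, MACS2 and HOMER on GRCm38/mm10. The deposited read counts on 323369 regions are raw, the peak lists carry the authors' −log10 q-values, and the phyloP score of each region is the authors' own. The 1164 viral columns were left out.

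Barcodes of over 200 UMIs, viral ones aside, were taken as nuclei. A gate required 2 UMIs of its marker list and 3 times each other list of its level. No doublet caller was run. Single-gene gates required 1 UMI. Gates under 50 nuclei got no level. The marker gene Hs3st4 had no column. Ccn2 had none under that symbol, but Ctgf, an older symbol of the same gene, was in the layer 6b list and had one. In the layer 6b gate Ctgf gave 43.1 of the list's 46.3 UMIs per 10000. Poisson and binomial intervals were exact (95%), and shares were also taken with nuclei of at least 300 UMIs thinned to 300. Folds of 2 were called among genes with 200 UMIs. Genes named beside the 8 were the gate genes, the 6 other regulators with most UMIs, and the 3 genes per member with the highest r (log2 of level plus 0.1, genes with 500 UMIs). ATAC regions named were those over starts and the 5 with the smallest adjusted p per contrast. Cux1, Cux2 and Foxp2 overlap other genes in GENCODE vM21, and their reads may be shared.

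For region counts, edgeR 4.0.16 in R 4.3.3 (TMM and filterByExpr, then the quasi-likelihood test on all 6 samples) was used with Benjamini-Hochberg adjustment over 40338 regions. DESeq2 1.42.0, as an alternative, was run without that filter on all 310118 regions with any read. It therefore differs from the main setting in both the filter and the method. The SE printed with a log2 difference is that difference divided by the square root of the test's F value. As the test shares its spread over all 6 samples, this SE is not the spread of the 2 samples of a class. On simulated data for SST against PV with 38349 regions and 200 changed by 2 (log2), edgeR recovered 144 and made 4 false calls. All simulated regions had 1 common spread and the others equal class means, so these counts need not hold for the real regions. Python 3.11.15, pandas 2.3.3 and scipy 1.17.1 were used. The 8 genes, the lists and the tests were chosen with earlier results of these data known. The alternative without shared barcode names was chosen after seeing the data.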

Additional observations from a re-analysis of the deposited data

How the results depend on the processing

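Depth limits the RNA: a gate of 174 VIP or 78 L5NP nuclei holds few UMIs of any of the 8 genes, and levels there move with single nuclei. Of 202 values that answer a comparison under an alternative, 169 stayed within 1.5 times, and 33 moved. All but 1 of the 33 were from the ATAC-Seq. The RNA values are counts over the 8 genes, and many of their alternatives left out just 1 library. The 1 that moved was the number of genes keeping their highest layer gate. It was 5 of the 8 when gates needed 1 UMI and none of other lists. Cux1 and Rorb were then highest in layer 4 (2.50 and 3.32 per 10000, 313 nuclei) and Bcl11b in L6CT. Without a filter, and likewise with DESeq2, 310118 regions were tested in place of 40338. DESeq2 gave no adjusted p for 252524 to 288599 of them, depending on the contrast. Leaving out 1 sample let 53326 to 56308 regions through the filter, so counts from those settings include regions that the main setting did not test. Single levels and ratios of the 8 genes in the RNA left their counting interval in 31 cases, among them ratios of the library sets and of other gates given above. The causes were not tested.

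For SST against PV, the regions called over the genome were 1597 higher and 1747 lower. They were 0 and 0 with no filter (20689 at an unadjusted p under 0.05), and 209 and 70 with DESeq2 (4835 unadjusted), with 0 regions of the 8 genes in both, where 18 of the 33 had no adjusted p in DESeq2. Leaving out 1 sample gave 469 to 4961 higher, 337 to 3615 lower and 0 to 4 regions of the 8 genes, with 0 without PV replicate 1 or PV replicate 2 and 4 without SST replicate 1. For SST against VIP, 7197 were higher and 7436 lower, while no filter gave 1941 higher, 5078 lower and 5 regions of the 8 genes, and DESeq2 1383 higher, 3846 lower and 4. Leaving out 1 sample gave 3929 to 8694 higher, 4652 to 10323 lower and 8 to 17 of the 8 genes, with 9 without VIP replicate 1 and 8 without VIP replicate 2. For PV against VIP, 9920 were higher and 9904 lower, while no filter gave 3095 higher, 7773 lower and 3 of the 8 genes, and DESeq2 2280 higher, 6655 lower and 3. Leaving out 1 sample gave 6000 to 13224 higher, 6980 to 14391 lower and 10 to 24 of the 8 genes, with 24 without SST replicate 1 and 22 without SST replicate 2.

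Replicate numbers did not pair the samples, with correlations of deviations between −0.04 and 0.03 for same-numbered samples. With the replicate block, 1244 and 1313 regions were called in SST against PV, 6815 and 7178 in SST against VIP and 9575 and 9584 in PV against VIP, and 2, 14 and 13 regions of the 8 genes. No difference called 2-fold and no called log2 change of a named region changed direction. Orders that were not called could turn, among them those of Bcl11b in L5PT and L6CT, Tle4 in the layer 6 gates, Foxp2 in neurons and glia and Rorb in upper and deep gates, with the values given above, and that of Rorb in neurons and glia (0.90 in library set 1, 1.23 in set 2).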
